A study of Homo sapiens with 8 samples.

Results

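Accessible chromatin at the genes for vault RNAs and Y RNAs was compared between vehicle and sorbitol in 10 regions (peaks), of 129536 peaks in all. Peaks belonged here when they lay within 1 kb of either end of VTRNA1-1, VTRNA1-2, VTRNA1-3, VTRNA2-1, RNY1, RNY3, RNY4 or RNY5 in the RefSeq gene table. The peaks were thus taken by position, but the genes had been chosen from the contrast between sorbitol and vehicle in these same 8 libraries. Their values in that contrast are therefore a description, and no p-value is given for them. Of the 8 genes, 7 had a peak: 4 peaks lay at 3 vault RNA genes and 6 at the 4 Y RNA genes. VTRNA2-1 had no peak in its window, and the nearest began 1797 bp away.

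HEK293 is a human embryonic kidney line. Per the genotype label, all cells carried eGFP-YAP, a fluorescent fusion of the Hippo pathway coactivator YAP, whereas the titles give HEK293 alone and the library names read wt. There were 4 libraries of cells given vehicle and 4 of cells exposed to 0.2 M sorbitol for 1 h. The vehicle libraries are labelled 0 h, so by these labels time and sorbitol cannot be told apart. Sorbitol is a sugar alcohol that raises osmolarity and draws water out of cells. The series text adds a serum starvation of 1 h before the stress. Omni-ATAC-seq was used, in which a transposase cuts open chromatin of isolated nuclei, so a higher count at a region means more accessible DNA. Nothing states that replicates came from separate cultures, so tests measure the spread between these libraries, which may be technical. The library names carry a first number, which is 1 for replicates 1 and 2 of each group and 2 for replicates 3 and 4. The labels name no batch, and what this number stands for is not known here.

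Vehicle libraries held 14757015 to 19831471 counts in peaks and sorbitol libraries 11522266 to 14355727. Levels are given as CPM, counts scaled to a common library size after correction by trimmed means (TMM), and changes as log2 fold changes of sorbitol over vehicle with standard errors from an edgeR fit over 129487 tested peaks. In that fit a peak is called when its adjusted p is under 0.05; 13.1% of all tested peaks were called lower after sorbitol and 16.0% higher. Among the 25201 tested peaks within 1 kb of a RefSeq gene end, called gene-boundary peaks, the shares were 32.8% lower and 8.75% higher. Their median log2 fold change was -0.17, against 0.01 for all tested peaks. The share of counts in gene-boundary peaks ran from 50.5% to 52.5% in vehicle and from 46.7% to 49.4% in sorbitol libraries, and its part in the results below was not tested. Vehicle 4 and sorbitol 4 had the highest and lowest levels at 477 peaks on unplaced contigs, with median log2 deviations of 0.35 and -0.32. As a check of the line, 4 of 4 HEK293 marker genes (PAX2, LIN28B, NEFM and SALL4) had a peak in or near the gene, but of these only NEFM had one at a gene end. Of 5 markers of other cell types, CD3E, ALB and MYH6 had none, while PTPRC and COL1A2 did. The strongest peak in vehicle had 36.4 CPM at PAX2, 25.4 at LIN28B, 12.0 at SALL4 and 6.35 at NEFM, against 10.4 at PTPRC and 4.58 at COL1A2. The presence of a peak thus did not separate the lists.

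Vault RNAs are short noncoding RNAs named for the vault, a large barrel-shaped ribonucleoprotein particle of the cytoplasm, although much of the cell's vault RNA is not bound to it. Y RNAs are short stem-loop RNAs bound by the Ro60 and La proteins, and they are known for roles in RNA quality control and in the start of DNA replication. Both families are transcribed by RNA polymerase III (Pol III). The vault genes have promoter elements inside the transcribed region, the A box and B box bound by TFIIIC, together with elements upstream. The Y RNA genes have gene-external promoters, in which a TATA element and a proximal sequence element upstream recruit the polymerase.

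The vault RNA genes VTRNA1-1 (140711276 to 140711373), VTRNA1-2 (140718926 to 140719013) and VTRNA1-3 (140726159 to 140726246) lie within 14971 bp on chromosome 5 of GRCh38, inside the long noncoding RNA gene LOC105378198. VTRNA2-1 (136080491 to 136080598) lies 4.63 Mb away on the same chromosome, between TGFBI and SMAD5. The Y RNA genes RNY5 (148941488 to 148941571), RNY4 (148963315 to 148963410), RNY3 (148983755 to 148983856) and RNY1 (148987136 to 148987248) span 45.8 kb on chromosome 7, between EZH2 and PDIA4. The genes are 84 to 113 bp long and shorter than the peaks over them, so a peak covers more than the gene. Each such peak covers the gene and both flanks, except that of RNY4, which starts at 148963346, inside the gene. The gene table gives no strand for them.

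RefSeq windows of 300 bases, from 250 before to 50 after a start (GRCh38.p14), were at hand for 2 genes whose starts lie in these peaks, and they are shown because they hold the DNA under a vault peak and a Y RNA peak. LOC105378198 has the same first base as VTRNA1-1, so its window on the plus strand, chr5:140711026-140711325, is the DNA around the vault gene's first base. The window of GHET1, a long noncoding RNA that starts 278 bp past the end of RNY1, is chr7:148987277-148987576 on the plus strand and covers the flank of RNY1 inside its peak. Capitals mark matches, on either strand, to 5 short motifs chosen after the sequences had been seen.
LOC105378198 (VTRNA1-1 peak): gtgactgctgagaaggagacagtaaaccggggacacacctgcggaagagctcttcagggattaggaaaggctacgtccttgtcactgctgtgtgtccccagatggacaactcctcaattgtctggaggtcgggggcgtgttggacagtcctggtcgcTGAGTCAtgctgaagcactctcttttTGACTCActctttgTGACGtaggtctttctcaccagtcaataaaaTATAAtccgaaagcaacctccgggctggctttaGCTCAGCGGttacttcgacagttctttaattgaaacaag
GHET1 (RNY1 peak): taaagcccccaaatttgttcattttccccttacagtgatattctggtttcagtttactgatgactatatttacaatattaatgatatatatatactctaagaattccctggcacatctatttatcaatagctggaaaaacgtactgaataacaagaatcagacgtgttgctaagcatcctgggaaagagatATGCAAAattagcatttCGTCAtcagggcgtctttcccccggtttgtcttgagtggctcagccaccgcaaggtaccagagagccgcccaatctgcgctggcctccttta
The motifs were TATAA (core of the TATA element, in 20.5% of 34943 such RefSeq windows), TGACG (the core of the cyclic AMP response element, 24.5%), TGANTCA (the AP-1 site, 7.72%), TTTGCAT (the octamer core, 4.47%) and GCNNAGNGG (the core of an A box, 29.1%). Counting from the first base, the VTRNA1-1 window held TATAA at position -22, TGACG at -53, the AP-1 pattern at -93 and -67, and the A box core at position 12, inside the transcribed region. None of the matches overlapped another. The GHET1 window held the octamer core at -59 and the TGACG core at -42, both on the minus strand as spelled here. GC content was 50% in the first window and 41.3% in the second. These are matches of letters and not measured binding sites.

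All 4 vault RNA peaks were lower after sorbitol in every library. At VTRNA1-1, whose RNA is known to bind the autophagy receptor p62, the peak at 140710439 to 140711629 had 56.8, 59.7, 55.2 and 46.0 CPM in vehicle libraries 1 to 4. In the sorbitol libraries it had 37.2, 36.2, 37.5 and 36.1 CPM. The lowest vehicle value was thus above the highest sorbitol value, and the sorbitol libraries lay close together. Means were 54.4 ± 5.92 and 36.8 ± 0.671 CPM (SD, n = 4), with a log2 change of -0.57 (standard error 0.084), or 32.5% fewer counts.

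VTRNA1-3, the last vault gene of the cluster, had a difference of like size. Its peak at 140725561 to 140726727 held 44.1, 45.3, 46.1 and 39.7 CPM in vehicle. After sorbitol these became 32.4, 28.3, 27.9 and 28.7 CPM. Means were 43.8 ± 2.86 and 29.3 ± 2.08 CPM (SD, n = 4), and the log2 fold change was -0.58 with standard error 0.085. Groups did not overlap here either, although vehicle 4 was the lowest vehicle library, as it was at VTRNA1-1.

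VTRNA1-2 had the most accessible peak of the 10, at 140718377 to 140719496, with 60.1, 65.8, 68.2 and 54.5 CPM in vehicle. The sorbitol libraries held 51.9, 48.5, 46.6 and 48.4 CPM. Here the gap between the groups was narrow, from 54.5 in vehicle 4 to 51.9 in sorbitol 1, and the log2 fold change of -0.35 (standard error 0.081) was the smallest of the vault peaks. A weaker peak at 140719918 to 140720322, 905 bp from VTRNA1-2 and so just inside the window, had 10.3, 11.9, 8.82 and 11.2 CPM in vehicle. In sorbitol it had 6.75, 7.78, 8.37 and 7.22 CPM, and its log2 change was -0.49 (standard error 0.131). Its groups stood apart by less than 1 CPM, and its counts of 81 to 198 a library made it the least precise vault peak.

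The peak just outside the window of VTRNA2-1, at 136082395 to 136082877, had 4.58 ± 0.919 CPM in vehicle and 4.52 ± 0.476 in sorbitol (SD, n = 4). Its log2 fold change was -0.03 with standard error 0.174, so the estimate lay within 1 standard error of 0. This peak is no member. VTRNA2-1, whose RNA is also called nc886 and binds the kinase PKR, thus had no region of its own in the peak set.

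**Figure D1:**
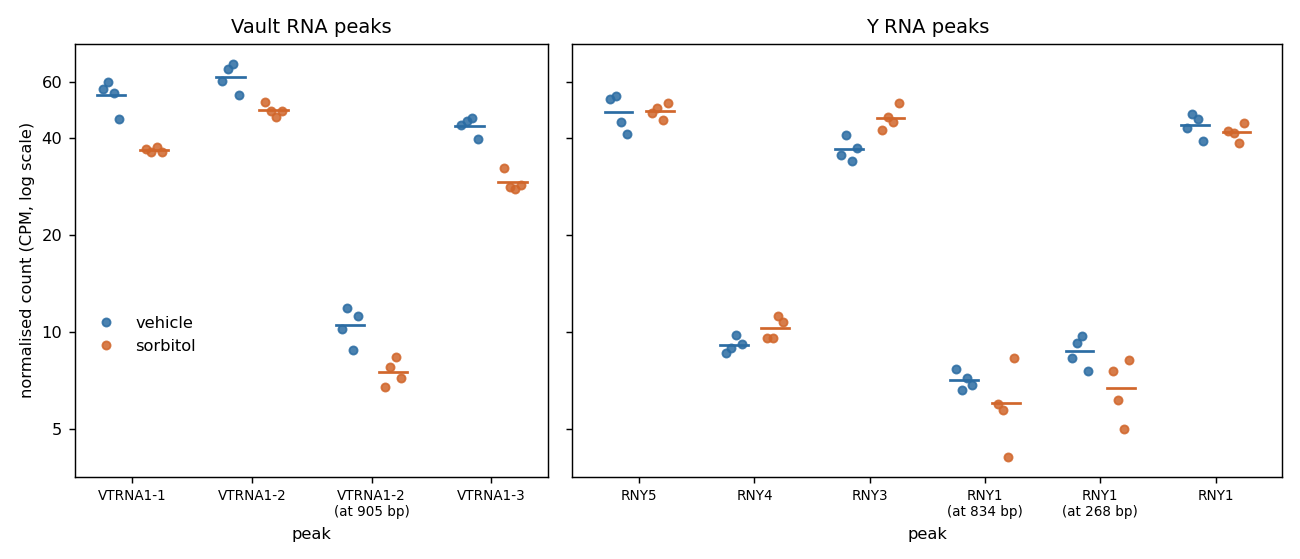
Normalised counts (CPM, log scale) of the 4 vault RNA peaks (left) and the 6 Y RNA peaks (right), with 1 point a library, blue for vehicle and orange for sorbitol, and bars at the group means. The vault groups do not overlap, whereas of the Y RNA peaks only RNY3 has groups apart, with sorbitol above vehicle.

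The Y RNA peaks did not share a direction. RNY3 was higher after sorbitol: its peak at 148982786 to 148984163 went from 35.5, 41.0, 33.9 and 37.3 CPM to 42.3, 46.4, 45.03 and 51.3 CPM. All sorbitol libraries lay above all vehicle libraries, with sorbitol 4 the highest. Means of 36.9 ± 3.06 and 46.3 ± 3.78 CPM (SD, n = 4) corresponded to a log2 change of 0.33 (standard error 0.084), or 25.5% more counts.

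RNY5, at the other end of the cluster from RNY1, had 53.0, 54.1, 44.9 and 41.2 CPM in vehicle at 148940654 to 148942250. In sorbitol it had 47.9, 49.8, 45.5 and 51.5 CPM. The sorbitol values lay inside the range of the vehicle values, and the log2 fold change was 0.01 with standard error 0.085. At RNY4, the weakest peak over a Y RNA gene (148963346 to 148963888), vehicle libraries held 8.64, 8.92, 9.80 and 9.17 CPM. Sorbitol libraries held 9.58, 9.56, 11.2 and 10.8 CPM, so the groups overlapped slightly, with a log2 fold change of 0.17 and standard error 0.123.

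RNY1 had 3 peaks. That over the gene, at 148987006 to 148988177, held 43.0, 47.6, 45.8 and 39.3 CPM in vehicle and 42.2, 41.4, 38.8 and 44.5 in sorbitol. The ranges overlapped, and the log2 fold change was -0.08 with standard error 0.083. The other 2 lay between RNY3 and RNY1, which are 3.28 kb apart, and were the narrowest members.

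The peak 268 bp from RNY1, at 148986553 to 148986868 and 316 bp wide, had 8.30, 9.28, 9.75 and 7.60 CPM in vehicle and 7.58, 6.14, 5.02 and 8.18 in sorbitol. Its log2 fold change was -0.37 with standard error 0.144, and sorbitol 4 lay inside the vehicle range. The peak 834 bp from RNY1, at 148986088 to 148986302 and 215 bp wide, had 7.69, 6.63, 7.22 and 6.84 CPM in vehicle and 6.00, 5.75, 4.10 and 8.31 in sorbitol, with a log2 change of -0.22 (standard error 0.156). In both, sorbitol 4 was the highest sorbitol library and sorbitol 3 the lowest. Without sorbitol 4 these log2 fold changes were -0.50 and -0.43, and without vehicle 4 and sorbitol 4 together -0.56 and -0.45.

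In the edgeR fit all 4 vault peaks were called lower, against 32.8% of gene-boundary peaks. Of the 6 Y RNA peaks, 1 was called lower (the peak 268 bp from RNY1) and 1 higher (RNY3), and 4 were not called. Among gene-boundary peaks 8.75% were called higher. Every sorbitol library lay below every vehicle library at the 4 vault peaks and at none of the Y RNA peaks, a pattern that 30.8% of gene-boundary peaks showed. For the opposite pattern, seen at RNY3, no such share is given. Since these genes were known for this contrast, nothing is read from the counts. The call at the peak 268 bp from RNY1 was lost in 12 of 19 refits, among them those without vehicle 1, 2 or 3 and without sorbitol 2 or 3, where its log2 fold change ran from -0.40 to -0.27. Without sorbitol 4, the peak at 834 bp was also called lower.

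**Figure D2:**
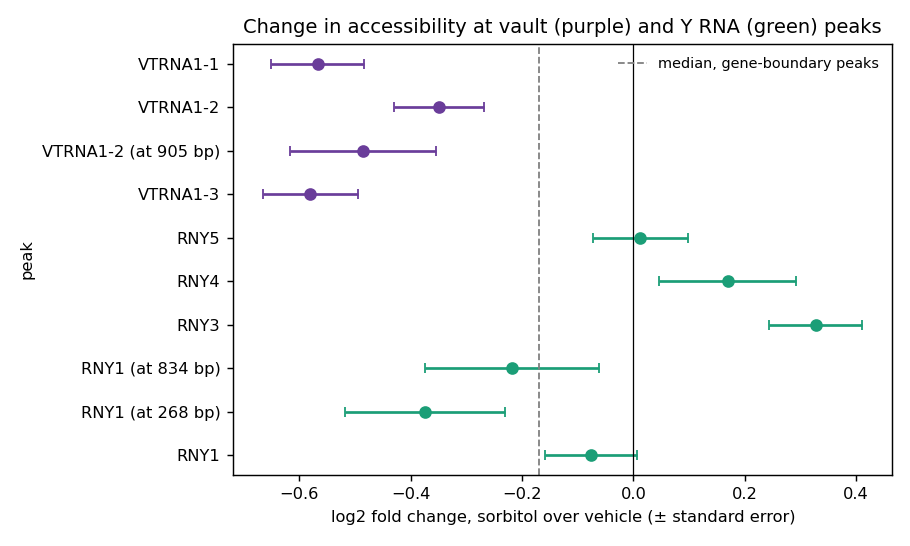
Log2 fold change of sorbitol over vehicle (horizontal axis) for each peak, with bars of 1 standard error, vault RNA peaks in purple and Y RNA peaks in green; the dashed line is the median of gene-boundary peaks at -0.17. The vault peaks run from -0.58 to -0.35 and the Y RNA peaks from -0.37 to 0.33.

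Peak by peak, the vault change lay below the Y RNA change in 23 of 24 pairs. The exception was VTRNA1-2 against the peak 268 bp from RNY1, which differed by 0.03. The widest pair was VTRNA1-3 and RNY3, with a difference of -0.91 on the log2 scale. Medians were -0.53 for vault and -0.03 for Y RNA peaks, which differ by -0.49 before rounding. With peaks that overlap the gene alone, 3 vault and 4 Y RNA peaks, the medians were -0.57 and 0.09.

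Summed over its peaks, the vault family had 170.9 ± 13.8 CPM in vehicle and 122.5 ± 3.84 in sorbitol (SD, n = 4). The Y RNA sums were 154.1 ± 10.8 and 159.7 ± 10.7 CPM. The ratio of the sums within a library does not change when each library is scaled by a single factor. Its log2 value was 0.13, 0.13, 0.24 and 0.10 in vehicle libraries 1 to 4 and -0.28, -0.40, -0.31 and -0.53 in sorbitol libraries 1 to 4. Vault peaks thus held more counts than Y RNA peaks in each vehicle library and fewer in each sorbitol library. The difference between the group means was -0.53, and the groups overlapped at no library, those numbered 4 included.

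**Figure D3:**
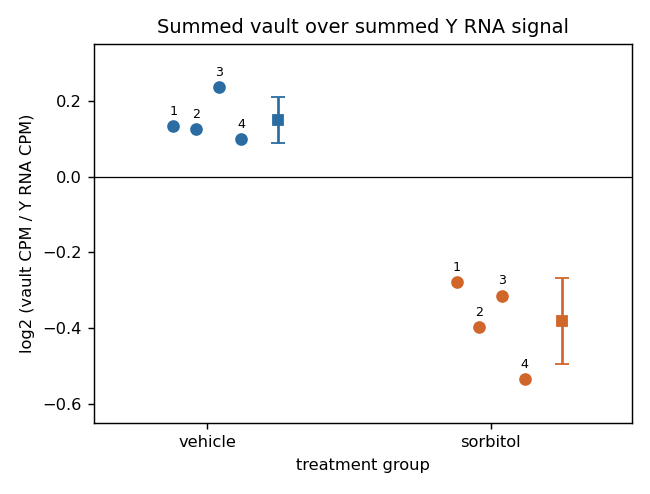
Log2 ratio of summed vault CPM to summed Y RNA CPM in each library (points, numbered by replicate), with group means and SD as squares and bars. The vehicle libraries sit between 0.10 and 0.24 and the sorbitol libraries between -0.53 and -0.28.

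Direction at single Y RNA peaks depended on the scaling. The vault peaks had negative log2 fold changes under all scalings tried, and RNY3 and RNY4 positive ones. With factors taken from gene-boundary peaks, which raise the median of all tested peaks from 0.01 to 0.19, the vault median was -0.35 with 2 of 4 peaks called lower. With those factors RNY5 had 0.19 and RNY4 0.34, both called higher, and RNY1 turned to 0.10. A loess offset, which removes trends with signal strength, took VTRNA1-2 from -0.35 to -0.15 and ended its call, leaving 3 vault peaks called lower, and RNY5 was called higher at 0.21. Factors from contig peaks left no vault peak called, with log2 fold changes of -0.64 to -0.41, and ended the call of RNY3 as well, at 0.29.

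Per length of peak, the order of the levels changed with treatment. In vehicle cells VTRNA1-2 led with 55.5 ± 5.45 CPM per kb, followed by VTRNA1-1 with 45.7 ± 4.97, VTRNA1-3 with 37.5 ± 2.45 and RNY1 with 37.5 ± 3.07 (SD, n = 4). Below these came RNY5 with 30.2 ± 3.92, RNY3 with 26.8 ± 2.22 and RNY4 with 16.8 ± 0.915 CPM per kb. Ranges of neighbours in this order overlapped, except that every library of RNY4 lay below every library of RNY3. In sorbitol cells the level order was VTRNA1-2 (43.6 ± 1.97 CPM per kb), RNY1 (35.6 ± 2.01), RNY3 (33.6 ± 2.74), VTRNA1-1 (30.9 ± 0.564), RNY5 (30.5 ± 1.61), VTRNA1-3 (25.1 ± 1.79) and RNY4 (18.9 ± 1.55). There the ranges of RNY1, RNY3, VTRNA1-1 and RNY5 overlapped from neighbour to neighbour, while VTRNA1-2 stood above RNY1, and VTRNA1-3 between RNY5 and RNY4, without overlap. Among gene-boundary peaks, the vehicle level per kb ranked at the 96.8th percentile for VTRNA1-2 and at the 53.6th for RNY4. Bulk accessibility cannot tell fewer open copies from less open ones.

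Signal strength was also tabulated, and its part in the vault and Y RNA values was not tested. Ranked by mean CPM in 10 bins of equal size, the strongest bin held 3 vault and 3 Y RNA peaks, namely those over VTRNA1-1, VTRNA1-2, VTRNA1-3, RNY5, RNY3 and RNY1. Gene-boundary peaks of that bin had a median log2 fold change of -0.21, and 49.3% of them were called lower. The next bin held 1 vault and 1 Y RNA peak, with 41.1% of its gene-boundary peaks lower, and the bin below it 2 Y RNA peaks and no vault peak, with 28.4% lower.

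Peaks around each cluster were read from the same fit, and the neighbourhoods were not tested against each other. On chromosome 5, from HARS1 to the end of LOC105378198, 4 other peaks were tested, and 2 were lower, both of them gene-boundary peaks, of which 32.8% were lower in all. These were the shared start region of HARS1 and HARS2, the cytosolic and mitochondrial histidyl-tRNA synthetases, at 140690915 to 140691893 (log2 fold change -0.35, standard error 0.085, edgeR adjusted p = 0.00146), and that of ZMAT2, a splicing factor gene, at 140700051 to 140701015 (-0.39, standard error 0.104, adjusted p = 0.0033). The ZMAT2 peak is the nearest strong one to the vault cluster, and its mean fell from 22.7 ± 3.68 to 17.4 ± 1.47 CPM (SD, n = 4). Its groups overlapped, with 18.1 CPM in vehicle 4 and 19.2 in sorbitol 1. The remaining peaks were weak, and neither passed. On chromosome 7, from the start of the EZH2 neighbour LOC124901767 to PDIA4, 19 other peaks were tested, of which 6 rose and the remainder were not called. The 6 had edgeR adjusted p-values of 0.000193 to 0.0178.

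Of those that rose, the peak at 148976416 to 148976721, between RNY4 and RNY3, had 1.26 ± 0.281 CPM in vehicle and 2.97 ± 0.803 in sorbitol (SD, n = 4), or 1.21 more on the log2 scale (edgeR adjusted p = 0.000311). That at 149000335 to 149000540, between RNY1 and PDIA4, had a log2 fold change of 1.20 (adjusted p = 0.000371). None of the 6 lay at a gene end, and 16.0% of all tested peaks were called higher. The gene-boundary peaks of this stretch that are no members did not pass: EZH2, a histone methyltransferase gene, had 0.03 with standard error 0.077, PDIA4, a chaperone gene of the endoplasmic reticulum, had -0.12 with standard error 0.073, and LOC124901768, 3131 bp from RNY4 and the nearest peak outside its window, had -0.03 with standard error 0.087.

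**Figure D4:**
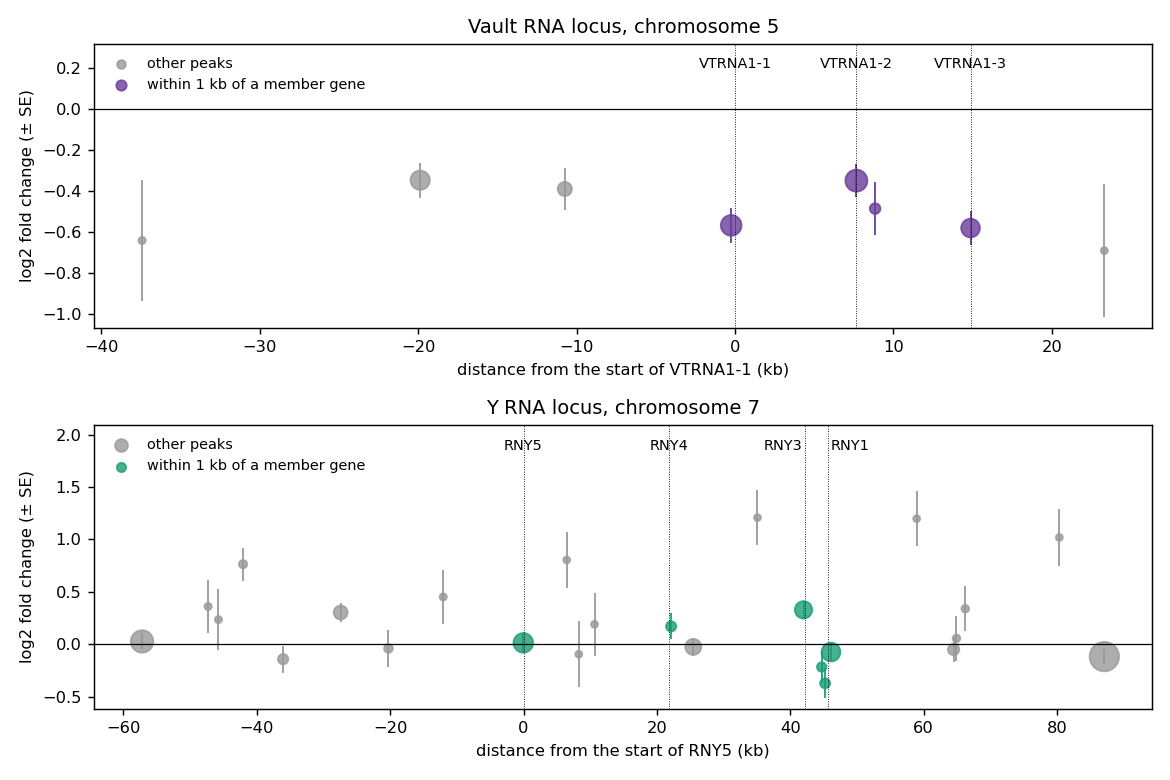
Log2 fold change (vertical axis, with 1 standard error) of every tested peak around the vault genes (top) and the Y RNA genes (bottom), against distance in kb from the start of VTRNA1-1 and RNY5; larger points have more CPM in vehicle, and dotted lines mark the genes. All points of the top panel lie under 0, whereas those of the bottom panel run from -0.37 to 1.21.

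Other Pol III genes were examined by promoter type. For gene-external promoters, the type of the Y RNA genes, 9 genes (5 U6 genes, RN7SK, RPPH1, RMRP and RNU6ATAC) had 10 gene-boundary peaks, of which 8 were called lower and the other two were not called. Their median log2 fold change was -0.35. Among all gene-boundary peaks 32.8% were called lower, and among those of the strongest bin by mean CPM 49.3%. RN7SK, the RNA that holds the elongation factor P-TEFb inactive, fell from 108.3 ± 7.08 to 83.0 ± 3.31 CPM (SD, n = 4), or by 0.38 on the log2 scale (edgeR adjusted p = 8.41e-05). RNU6ATAC, of the minor spliceosome, fell by 0.53 on the log2 scale (adjusted p = 4.11e-06). Against this class, the 6 Y RNA peaks had 1 called lower and a median of -0.03. The difference between the 2 sets was not tested.

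For gene-internal promoters, 375 of 426 genes, nearly all of them nuclear transfer RNA genes, had 356 gene-boundary peaks. Of these, 269 were called lower and 4 higher, the latter becoming 11 with the loess offset, 13 with gene-boundary factors and 2 with contig factors. Their median was -0.49, with values from -1.40 to 1.16. The shares called lower among all gene-boundary peaks and those of the strongest bin were again 32.8% and 49.3%. RN7SL1, RN7SL2 and BCYRN1 alone had 4 peaks, of which 3 were lower, with a median of -0.40. Transfer RNA and U6 genes have near-identical copies, so the counts at a single copy are uncertain.

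**Figure D5:**
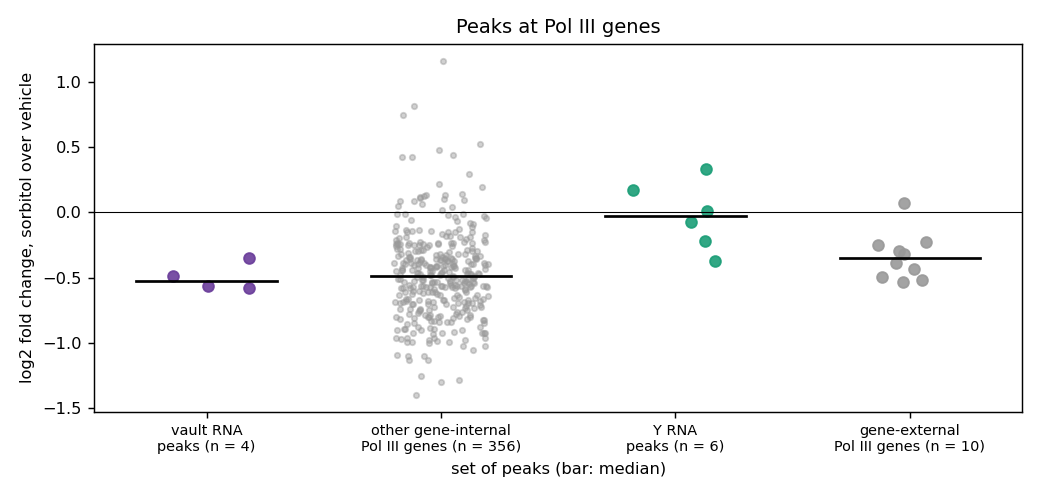
Log2 fold change of single peaks (points) with the median (bar) for vault RNA peaks, other Pol III genes with gene-internal promoters, Y RNA peaks and Pol III genes with gene-external promoters. Medians are -0.53, -0.49, -0.03 and -0.35.

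Genes for the protein partners of these RNAs and for their transcription were listed as well. Across 7 lists, 51 of 51 genes had 74 gene-boundary peaks, of which edgeR called 45 (60.8%) lower and 0 higher. Their median log2 fold change was -0.31. DESeq2 also called 0 higher, and 1 had a positive change at an unadjusted edgeR p under 0.05. For the vault particle, 2 of 4 peaks fell, led by TEP1, the telomerase-associated protein 1 gene, at 20412734 to 20413945 on chromosome 14 (log2 fold change -0.48, standard error 0.09, edgeR adjusted p = 4.87e-05). MVP, which encodes the major vault protein and is named for that role, had -0.22 with standard error 0.125 and did not pass (adjusted p = 0.182). Among proteins that process or bind vault RNAs, 3 of 7 peaks fell, led by SQSTM1, the autophagy receptor p62, at 179806642 to 179807662 on chromosome 5 (-0.39, adjusted p = 0.000827). Those that fell lay at SQSTM1 and SRSF2 alone. SQSTM1 also had a peak at 179805722 to 179805974 that fell (-0.41) and another at 179806150 to 179806350 that was not called (0.03).

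At the genes listed for proteins that bind Y RNAs, 9 of 18 peaks fell. The list includes ZBP1 on chromosome 20, which may not be a Y RNA partner, and its peak was not called. The smallest p-value belonged to PUF60, a splicing factor, at 143814874 to 143816461 on chromosome 8, which fell from 35.3 to 18.9 CPM (log2 fold change -0.90, edgeR adjusted p = 3.11e-11). At the other end of PUF60, the peak at 143828835 to 143829900 fell less (-0.36, edgeR adjusted p = 0.00281). SSB, the gene of the La protein that binds new Pol III transcripts, fell by 0.24 on the log2 scale (adjusted p = 0.0283). The stronger peak of RO60, which encodes Ro60 itself, had -0.17 with standard error 0.077 and did not pass (adjusted p = 0.0812). SSB and RO60 are named for their role.

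Genes of the Pol III machinery were counted in the same way. Of the subunit genes, 11 of 20 peaks fell and the remainder were not called, with a median of -0.40, though 2 were called higher with the loess offset or with gene-boundary factors; POLR3E at 22296884 to 22298712 on chromosome 16 had -0.81 (edgeR adjusted p = 8.82e-11). Changes of at least 2-fold were found at weak peaks of POLR3A (-1.13, from 3.03 to 1.39 CPM) and POLR3E (-1.12, from 1.11 to 0.494 CPM, on 3 to 20 counts a library). Of the genes for the Pol III transcription factors TFIIIC, TFIIIB and TFIIIA, 10 of 12 peaks fell, led by GTF3C2 at 27356132 to 27357530 on chromosome 2 (-0.85, adjusted p = 3.93e-11). Factors of gene-external promoters had 9 of 12 peaks lower, led by SNAPC5 at 66497331 to 66498395 on chromosome 15 (-0.60, adjusted p = 6.79e-07), and a peak of SNAPC4 fell 2-fold (-1.02, adjusted p = 1.18e-06). MAF1, the repressor of Pol III, had 1 peak, at 144103515 to 144105106 on chromosome 8, which fell by 0.71 on the log2 scale (adjusted p = 6.76e-10). All list counts stand beside the 32.8% of gene-boundary peaks called lower. In the strongest bin by mean CPM that share was 49.3%, and the list peaks were not compared at matched strength.

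Profiles across libraries were also matched. Over the 8 libraries, the gene-boundary peaks on other chromosomes whose log2 CPM followed the VTRNA1-2 peak most closely, among 17982 compared, lay at LOC100287010 on chromosome 2 (Pearson's r = 0.99), MED15 on chromosome 22 (0.987) and the shared end region of MYO15B and RECQL5 on chromosome 17 (0.985). For RNY5, the Y RNA peak with the most CPM in total though not per kb, they lay at DLX2 on chromosome 2 (0.963), the histone genes H2AC15 and H2BC15 on chromosome 6 (0.958) and GNG5 with SPATA1 on chromosome 1 (0.936). The first 3 fell by 0.74, 0.38 and 0.82 on the log2 scale, while the matches of RNY5 had values of 0.01, 0.04 and -0.0006. All points of a match share the same 8 libraries, and the highest of so many correlations are large by selection.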

How the data were processed

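The authors deposited raw counts for 129536 shared peaks in 8 libraries; the file header gives only positions and library names. Per the submitters' processing notes, Trim Galore 0.6.10, BWA 0.7.17, SAMtools 1.22, Picard, MACS2 2.2.9.1, bedtools, deepTools 3.5.4 and DESeq2 were used with hg38; what was counted, and how peaks were merged, is not given in the sources used here. Table starts count from 0 (the smallest is 0), so 1 was added.

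EdgeR 4.0.16 in R 4.3.3 was fitted to all peaks that passed filterByExpr (minimum count 10, minimum total 15), with TMM factors, treatment as the only term, the quasi-likelihood test and Benjamini-Hochberg adjustment over all tested peaks. The fit was tested on simulated data. DESeq2 1.42.0, other scalings, filters, blocks, membership windows and left-out libraries were alternatives. Replicates follow the titles. Members, gene lists and tests were chosen with earlier results of these data known. Genes outside the members are named by a rule: the smallest p-value of each list, changes of at least 2-fold, the nearest genes and peaks, and the 3 profiles most like the strongest peak of each family among gene-boundary peaks averaging 50 counts or more. RN7SK, MVP, SSB and RO60 were named outside this rule. None of the 8 members had a RefSeq promoter window of its own.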

Additional observations from a re-analysis of the deposited data

Results flagged for a closer look

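In 26 groups of 4 libraries, a library far from the other 3 was sought, and 1 was found where chance gives about 1 in 20, or 1.3. It was the summed vault signal of sorbitol 1, with 128.2 CPM against 120.3 to 120.8 CPM in the other sorbitol libraries. The lowest vehicle sum was 151.4 CPM, so the library lay on the sorbitol side of the gap between the groups.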

How the results depend on the processing

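The vault median stayed negative in all 24 alternatives (-0.58 to -0.35), and so did the difference between vault and Y RNA medians (-0.66 to -0.40). These are not 24 separate checks. Leaving out VTRNA2-1 kept the same peaks, since it has none, and overlapping peaks and 1 peak a gene gave the same values. Scaling each library by another single factor shifts all peaks nearly alike, so it could hardly move the difference. The Y RNA median of -0.03 had no stable sign. It was 0.05 with library totals, 0.16 with the loess offset, 0.14 with gene-boundary factors, 0.06 with a mean of at least 50 counts, 0.09 with overlapping peaks or 1 peak a gene, and -0.13 without vehicle 4 and sorbitol 4, which was added once the data had been seen; the cause was not tested. The difference was -0.66 with overlapping peaks or 1 peak a gene, since these leave out the weaker peaks at VTRNA1-2 and RNY1. The vault median was -0.39 under the loess offset and -0.35 under gene-boundary factors. Omitting single libraries gave -0.56 to -0.47 (vault), -0.09 to 0.02 (Y RNA) and -0.55 to -0.45 (difference), with 4 vault peaks called lower each time and 0 to 2 Y RNA peaks.

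Vault peaks called lower numbered 3 with the loess offset, 2 with gene-boundary factors and 0 with contig factors. Y RNA peaks called lower numbered 0 with library totals, the loess offset, either set of factors, the count minimum, the replicate block and the DESeq2 test, and 2 without vehicle 4 and sorbitol 4. The numbers did not pair the libraries (correlations of deviations -0.133 to 0.00671), and with the replicate block the medians were -0.52 and -0.03.

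Over all peaks, 37715 were called. This became 14352 with contig factors (5233 lower, 9119 higher), 21385 with the count minimum (10558 lower, 10827 higher) and 42704 with gene-boundary factors (8671 lower, 34033 higher). Gene-boundary peaks called lower numbered 8273, then 4731 with gene-boundary and 2192 with contig factors. Higher peaks made up 54.9% of calls, against 67.4% with library totals and 79.7% with gene-boundary factors. Partner peaks called lower numbered 29 with the loess offset, 26 with gene-boundary and 12 with contig factors, and those called higher 4 with the loess offset, 5 with gene-boundary factors and 1 with library totals or the count minimum. Gene-external Pol III peaks called lower numbered 5 with the loess offset, 4 with gene-boundary and 0 with contig factors, and gene-internal ones 119 with contig factors. The cause was not tested.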
